A study of Rattus norvegicus with 15 samples.

Results

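A set of 7 genes that mark the striatal projection neurons of the direct pathway were followed in rats with a dopamine lesion, with and without L-DOPA: Drd1, Chrm4, Tac1, Isl1, Ebf1, Eya1 and Slc35d3. They were chosen by name as known markers of this cell type, with earlier results of these data already known. The 7 members stand among 18166 genes named on the array, each has 1 transcript row carrying its symbol alone, and all 7 were brighter on average than the dim level of 5.85 (log2), which is the 95th percentile of 70 olfactory receptor transcripts. On the array the transcript IDs are 17714592 for Drd1, 17764147 for Chrm4, 17781511 for Tac1, 17745409 for Isl1, 17645159 for Ebf1, 17796742 for Eya1 and 17627510 for Slc35d3. Tac1 was lower in PD rats than in Normal rats and higher again in L-DOPA treated rats at an unadjusted p-value, while none of the 7 members passed the threshold after adjustment over all 36685 transcripts. Hardly any transcript passed it: at most 6 (0.0164%) in a comparison, that of the 3 L-DOPA groups joined against PD. Eya1 was higher with PD98059 than with vehicle at an unadjusted p-value, by 0.62 with all arrays and by 0.28 without 1 of the vehicle arrays. The other 5 members passed no threshold in any comparison.

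Projection neurons of the striatum form the direct and the indirect output routes. Those of the direct pathway project to the substantia nigra pars reticulata and the internal pallidum, carry the D1 dopamine receptor, and make substance P and dynorphin beside GABA. Those of the indirect pathway carry the D2 receptor and make enkephalin. Loss of dopamine lowers the drive on the direct pathway, and pulsatile L-DOPA acting on sensitised D1 receptors is tied to dyskinesia, in part through the kinase ERK.

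The samples were striata of adult male Sprague-Dawley rats, 1 array per rat and 3 rats per group, 15 arrays in all. Normal rats had a sham operation. The 4 other groups had a unilateral 6-OHDA lesion of the right medial forebrain bundle, and lesioned rats were kept only if apomorphine made them turn. PD rats had the lesion alone. LID rats also received L-DOPA with benserazide daily for 3 weeks and were taken on only with full dyskinesia. LID + Vehicle rats had, beside this, a cannula and daily solvent infusions into the right lateral ventricle, and LID + PD98059 rats had the same cannula with the MEK inhibitor PD98059, infused for 12 days from day 10 of L-DOPA. MEK is the kinase that activates ERK, so the last comparison asks what blocking this step does to the markers. The arrayed tissue was striatum of the lesioned side, as the paper states. Its cells were not sorted, so fewer direct pathway neurons and less RNA per neuron cannot be told apart.

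Some facts of the whole series touch the members. Array medians lay between 5.56 and 5.65, and no 2 arrays were identical. Of 10 markers that all projection neurons share, 9 had a row and all 9 were above the dim level. Most cortical markers passed that level too, as given below, so it does not test the label striatum. The mean of these 9 markers, called the shared projection neuron level below, was 9.59 in LID + Vehicle replicate 1 and 9.75 in Normal replicate 2, and between 9.96 and 10.50 in the other 13 arrays. Markers of cortical excitatory neurons, which the striatum should lack, were present in 6 rows, 5 of them above the dim level, and their mean level was 8.01 to 8.47 in Normal, 7.31 to 7.94 in PD, 6.43 to 7.48 in LID, 6.43 to 7.19 in LID + Vehicle and 6.19 to 7.35 in LID + PD98059. The microglia level was 7.57 to 8.70 in Normal, 7.74 to 8.35 in PD and 7.74 to 9.46 in the 9 L-DOPA arrays. All levels are log2 RMA signals, and a level of one gene is not set against that of another.

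**Figure D1:**
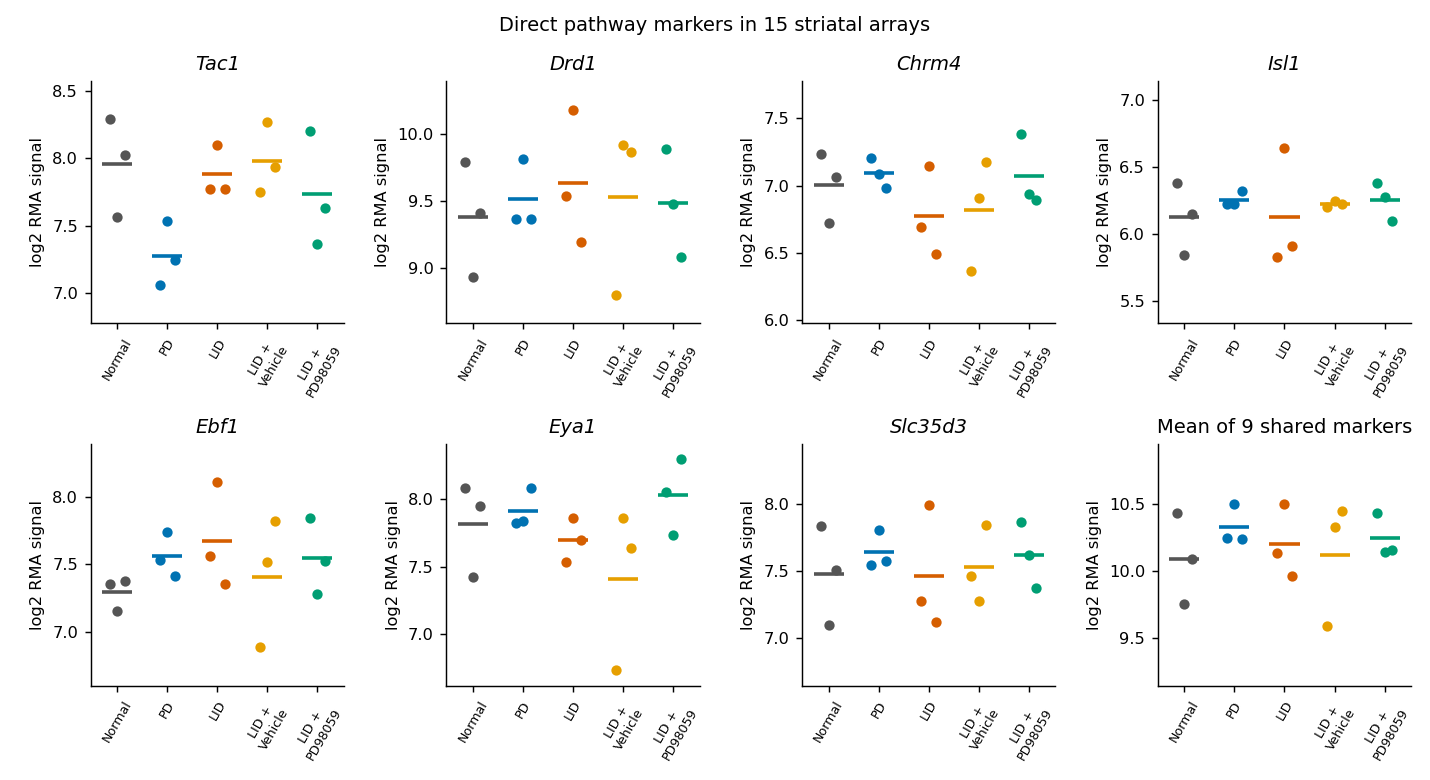
Log2 RMA signal (vertical axis) of the 7 members and of the mean of 9 shared projection neuron markers in 15 arrays, by group (horizontal axis). Points are rats and bars are group means; every panel spans the same 1.8 log2 units. The 3 PD arrays of Tac1, at 7.06 to 7.53, lie under all Normal and LID arrays, while for the other members the points of most groups overlap.

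Tac1 encodes the precursor of substance P and neurokinin A, the tachykinins released by direct pathway neurons. Its level was 8.29, 7.56 and 8.03 in the Normal rats and 7.06, 7.53 and 7.24 in the PD rats. It was 7.77, 8.10 and 7.77 in LID, 7.75, 8.27 and 7.93 in LID + Vehicle, and 8.21, 7.36 and 7.63 in LID + PD98059. Every PD array was below every Normal, LID and LID + Vehicle array, and only the LID + PD98059 group reached into the PD range. By group mean the order from low to high was PD, LID + PD98059, LID, Normal and LID + Vehicle, at 7.28 ± 0.24, 7.73 ± 0.43, 7.88 ± 0.19, 7.96 ± 0.37 and 7.98 ± 0.26 (SD, n = 3). Neighbours in that order overlapped in every case.

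In PD versus Normal, Tac1 was lower by 0.68 on the log2 scale (0.623-fold), with a standard error of 0.23 and a 95% interval of -1.19 to -0.18. The limma p was 0.0123, with an adjusted p of 0.99986 (Benjamini-Hochberg) and a two-sided exact permutation p of 0.1, the smallest that 3 against 3 allows. The groups did not overlap, with a gap of 0.03 between them. The difference was -0.52 without Normal replicate 1 and -0.57 without PD replicate 1, and in both cases the unadjusted limma p was no longer under 0.05. Across all transcripts 1.95% were lower at the same unadjusted threshold (p under 0.05 and at least 1.2-fold), and 4.58% were lower without overlap.

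In LID versus PD, Tac1 was higher by 0.61 (1.52-fold, SE 0.23, 95% interval 0.10 to 1.11). The limma p was 0.0229, with an adjusted p of 0.506 and an exact permutation p of 0.1, again without overlap. Across all transcripts 3.48% were higher at the unadjusted threshold and 6% were higher without overlap. The unadjusted limma p was no longer under 0.05 without LID replicate 2 (a difference of 0.50), without PD replicate 1 (0.50) or without PD replicate 3 (0.59). With the 9 L-DOPA arrays joined against PD, Tac1 was higher by 0.59 (SE 0.19, limma p = 0.00901, adjusted p = 0.291, exact permutation p = 0.0136), against a background of 3.83% of transcripts called higher. Without PD replicate 1 the difference was 0.48 and its unadjusted limma p was no longer under 0.05. The comparisons with PD share its 3 arrays, so a low PD group enters each of them.

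Neither infusion gave a difference of Tac1 beyond the spread. LID + Vehicle was above LID by 0.10 (95% interval -0.41 to 0.61), and LID + PD98059 was below LID + Vehicle by -0.25 (95% interval -0.76 to 0.26, adjusted p = 0.986). The latter difference was -0.07 without LID + PD98059 replicate 2 and -0.49 without LID + PD98059 replicate 1. These intervals leave room for changes as large as the one between PD and LID in the case of PD98059.

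The Tac1 values were then set against 2 levels that moved between arrays. With the shared projection neuron level as a covariate, the difference was -0.87 in PD versus Normal (SE 0.17, adjusted p = 0.601), 0.71 in LID versus PD (adjusted p = 0.279) and 0.70 in the joined comparison (adjusted p = 0.0779). With the cortical marker level in the model instead, it was -0.99 in PD versus Normal (adjusted p = 0.948), but 0.34 in LID versus PD (adjusted p = 0.568) and 0.21 in the joined comparison (adjusted p = 0.713). The difference between PD and Normal was larger in size under both, and the higher level after L-DOPA was smaller by over 1.5 times once the cortical marker level, itself lower in most L-DOPA arrays, was in the fit. The cortical marker level did not overlap between Normal (8.01 to 8.47) and PD (7.31 to 7.94). Here and below, that fit in PD versus Normal thus carries a slope within groups across a gap without arrays. There it cannot separate the cortical marker level from the group. LID (6.43 to 7.48) overlapped PD, but most L-DOPA arrays lay below PD, so in those comparisons level and group are only partly separable.

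Read within each array, Tac1 minus the shared projection neuron level was -3.19, -2.96 and -3.00 in the PD rats. It was -2.14, -2.19 and -2.06 in the Normal rats, and between -2.78 and -1.85 in the 9 L-DOPA arrays. All 3 PD arrays thus lay under the 12 others on this scale, which was chosen after the values were seen and carries no test. For the 6 other members the PD arrays did not lie apart from the rest in this way.

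**Figure D2:**
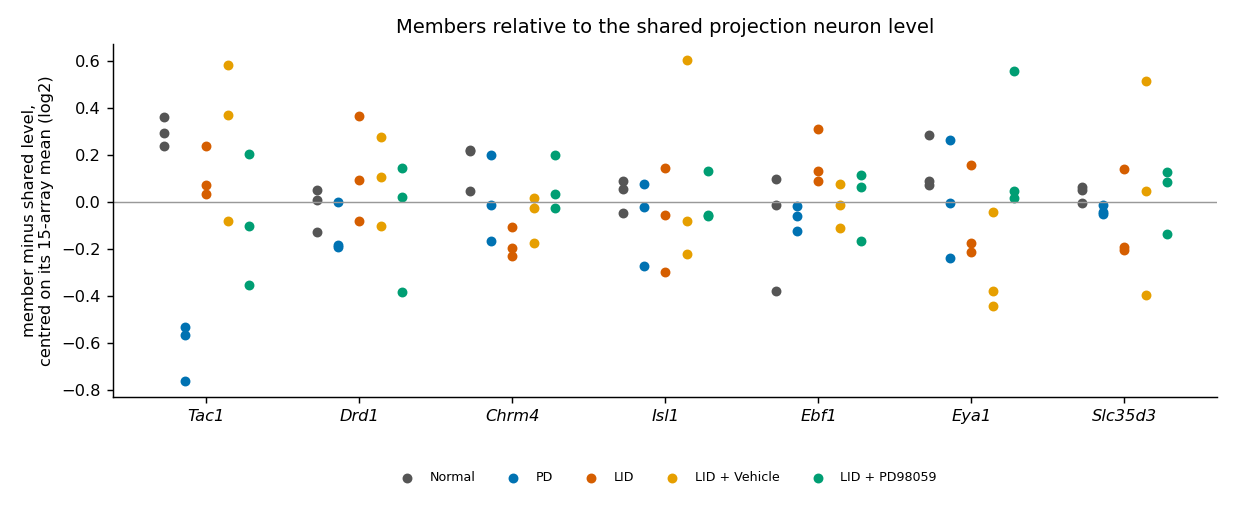
Each member's log2 signal minus the shared projection neuron level of the same array, centred on the member's mean over 15 arrays (vertical axis, log2), for the 7 members (horizontal axis) and 5 groups (colours); points are rats. The 3 PD arrays are the lowest of all for Tac1, whereas for the other members they sit among the arrays of other groups.

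Promoter letters of Tac1 are shown because only Tac1 among the members was called in PD versus Normal, at the unadjusted threshold. Another reason is that the D1 receptor acts through cyclic AMP. The cyclic AMP factor CREB binds the motif TGACGTCA or its shorter form TGACG. In the 250 bases before the RefSeq start (GRCr8), 6 of the 7 members had a sequence, Eya1 being the other. Both strands were searched for TGACGTCA, for TGACG (which lies inside the full motif), for the AP-1 motif TGANTCA bound by Fos and Jun proteins, and for the E-box CACGTG. Tac1 held 1 short motif and 1 E-box, Slc35d3 held 1 short motif, and the other 4 held none of these letters. The windows below are 30 bases read 5′ to 3′ on the gene's strand, with the matched letters in capitals.
Tac1 short motif, chr4:36645364-36645393, plus strand: ttccctaaaattgCGTCAtttcgaacccaa
Tac1 E-box, chr4:36645499-36645528, plus strand: tggggagagtgtCACGTGgctctccaggct
Slc35d3 short motif, chr1:16392915-16392944, minus strand: gggctgggggcgcCGTCActtgttgcgacc
The short motif reads on the opposite strand in both genes, so that its letters appear as CGTCA. Of 33469 promoters of the same length, 18.2% held the short motif, 1.59% the full motif, 6.34% the AP-1 motif and 5.59% the E-box, so that 2 of 6 members with the short motif is a description only.

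Drd1 encodes the D1 dopamine receptor, which raises cyclic AMP in direct pathway neurons. Its level was 9.79, 8.93 and 9.41 in Normal, 9.36, 9.81 and 9.37 in PD, and 9.54, 10.18 and 9.19 in LID. It was 8.80, 9.91 and 9.86 in LID + Vehicle and 9.88, 9.47 and 9.09 in LID + PD98059. All 5 groups overlapped. The 5 group means spanned 0.26, against an SD within groups of 0.46, and ran from low to high as Normal, LID + PD98059, PD, LID + Vehicle and LID with no neighbours apart. The difference was 0.14 in PD versus Normal (95% interval -0.59 to 0.87) and 0.12 in LID versus PD (95% interval -0.61 to 0.85), so that changes of over 1.5-fold either way remain inside the intervals. With the cortical marker level in the model the signs turned, to -0.46 in PD versus Normal (adjusted p = 0.976), -0.40 in LID versus PD (adjusted p = 0.468) and -0.70 in the joined comparison (adjusted p = 0.204).

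Chrm4 encodes the M4 muscarinic receptor, which lowers cyclic AMP and opposes the D1 receptor in the same neurons. It is also made by cholinergic interneurons, whose 6 listed markers included only 2 above the dim level. Chrm4 was 7.23, 6.73 and 7.07 in Normal, 7.21, 7.09 and 6.98 in PD, and 6.69, 7.15 and 6.49 in LID. It was 6.37, 6.91 and 7.17 in LID + Vehicle and 7.39, 6.93 and 6.89 in LID + PD98059, so that all groups overlapped. Its group means ran from low to high as LID, LID + Vehicle, Normal, LID + PD98059 and PD, over a span of 0.31 with an SD within groups of 0.30. Its largest difference among the 5 comparisons was -0.31 in LID versus PD (SE 0.22, 95% interval -0.80 to 0.17, adjusted p = 0.675). It was -0.50 without LID replicate 2 and -0.17 without LID replicate 3. LID + PD98059 was above LID + Vehicle by 0.25 (95% interval -0.23 to 0.74), a value that was 0.03 without LID + Vehicle replicate 1.

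Isl1 encodes a LIM homeodomain factor needed for direct pathway neurons to form, and it also marks cholinergic interneurons. It was the dimmest member relative to the dim level, with a 15-array mean of 6.20. The values were 6.38, 5.84 and 6.15 in Normal, 6.22, 6.22 and 6.32 in PD, 5.83, 6.64 and 5.91 in LID, 6.20, 6.25 and 6.22 in LID + Vehicle, and 6.38, 6.28 and 6.10 in LID + PD98059. All groups overlapped, and the lowest Normal and LID arrays lay just under the dim level. No difference of Isl1 was larger than 0.13 in size in any of the 5 comparisons, with adjusted p of 0.857 or more. Without LID replicate 2, the highest Isl1 array, the difference was -0.38 in LID versus PD and 0.35 in LID + Vehicle versus LID, both past the unadjusted threshold and neither past the adjusted one. The cholinergic interneuron level was 5.62 ± 0.11 in Normal and 5.88 ± 0.16 in PD (SD, n = 3), with 6 of 6 markers higher in PD and none past the unadjusted threshold. Its part in the Isl1 and Chrm4 values was not tested.

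Ebf1 encodes a helix-loop-helix factor of maturing direct pathway neurons, made also by pericytes. It was 7.35, 7.15 and 7.38 in Normal and 7.53, 7.74 and 7.42 in PD, which did not overlap, with a gap of 0.04. The difference of 0.27 (SE 0.24, 95% interval -0.25 to 0.79) had an adjusted p of 0.99986, and across all transcripts 5.92% were higher in PD without overlap. Ebf1 was 7.56, 8.11 and 7.36 in LID, 6.88, 7.51 and 7.82 in LID + Vehicle, and 7.84, 7.28 and 7.52 in LID + PD98059, all of them overlapping PD. Its group means ran from low to high as Normal, LID + Vehicle, LID + PD98059, PD and LID, and neighbours in it overlapped. Markers of pericytes and endothelium were likewise higher in PD, in 8 of 8 genes with a median of 0.25, and their level was 7.69 ± 0.06 in Normal and 7.96 ± 0.14 in PD (SD, n = 3). The shared projection neuron markers were higher too, in 9 of 9 genes with a median of 0.23. Their level was 10.43, 9.75 and 10.09 in the Normal rats and 10.25, 10.50 and 10.24 in the PD rats, Normal replicate 2 being the lowest. Ebf1 minus their level in the same array was -2.80 ± 0.25 in Normal and -2.76 ± 0.05 in PD (SD, n = 3), which overlapped. The part of the pericyte markers in the Ebf1 difference was not tested. With the cortical marker level in the model the Ebf1 difference was -0.076.

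Eya1 encodes a transcription coactivator that is also a protein phosphatase. It was 8.08, 7.42 and 7.95 in Normal, 7.82, 7.84 and 8.08 in PD, and 7.54, 7.86 and 7.70 in LID. It was 6.73, 7.86 and 7.64 in LID + Vehicle and 8.05, 7.74 and 8.30 in LID + PD98059. LID + Vehicle replicate 1 held the lowest of the 15 values, and the 2 infused groups overlapped. The same array was also the lowest for Drd1, Chrm4, Ebf1 and the shared projection neuron level. LID + PD98059 was above LID + Vehicle by 0.62 (1.54-fold, SE 0.26, 95% interval 0.05 to 1.18), with a limma p of 0.034, an adjusted p of 0.966 and an exact permutation p of 0.2. Across all transcripts 2.33% were higher at the unadjusted threshold in this comparison. Without LID + Vehicle replicate 1 the difference was 0.28, and it was 0.61 without LID + PD98059 replicate 1 and 0.48 without LID + PD98059 replicate 3. In these 3 cases the unadjusted limma p was no longer under 0.05. The group means ran from low to high as LID + Vehicle, LID, Normal, PD and LID + PD98059, and neighbours overlapped. Eya1 minus the shared projection neuron level of the same array was -2.71 ± 0.22 in LID + Vehicle and -2.22 ± 0.31 in LID + PD98059 (SD, n = 3). This scale carries no test.

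Slc35d3 encodes a nucleotide sugar transporter family protein which, in mice, is needed for the D1 receptor to leave the endoplasmic reticulum. It was 7.83, 7.10 and 7.51 in Normal, 7.54, 7.81 and 7.58 in PD, and 7.28, 7.99 and 7.12 in LID. It was 7.46, 7.28 and 7.84 in LID + Vehicle and 7.86, 7.62 and 7.38 in LID + PD98059, and all groups overlapped. The group means spanned 0.18, from LID through Normal, LID + Vehicle and LID + PD98059 to PD, against an SD within groups of 0.32. The difference was 0.16 in PD versus Normal and -0.18 in LID versus PD, with adjusted p of 0.99986 and 0.843. The latter was -0.44 without LID replicate 2 and -0.0094 without LID replicate 3.

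**Figure D3:**
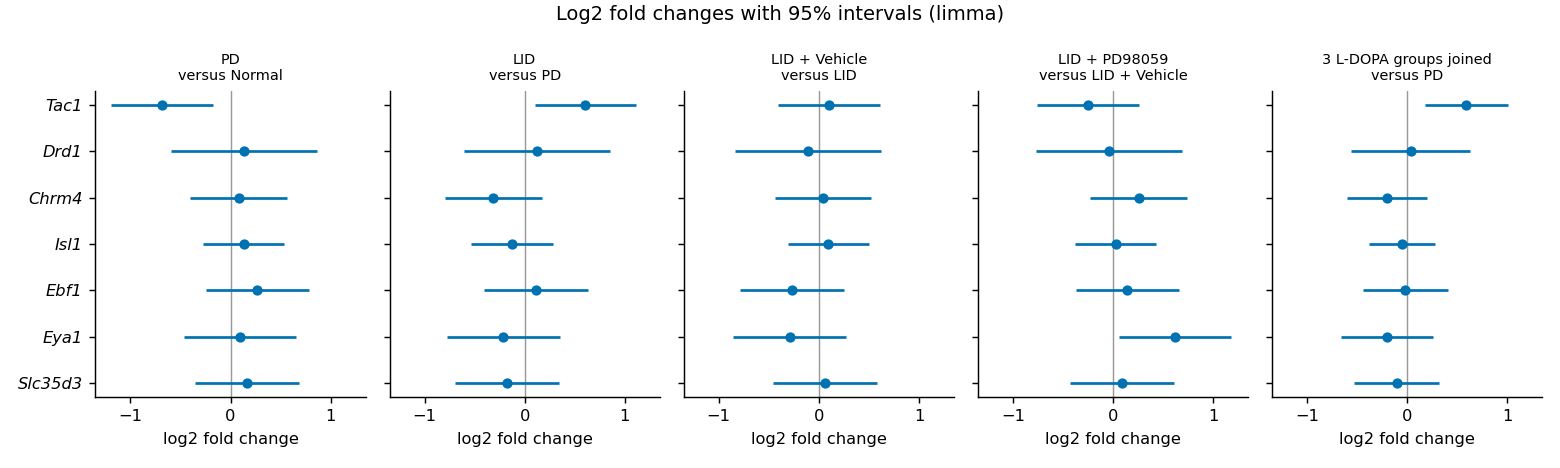
Log2 fold change (horizontal axis) of the 7 members (vertical axis) in the 5 comparisons; points are limma estimates and lines 95% intervals. The intervals of Tac1 leave out 0 in PD versus Normal, LID versus PD and the joined comparison, that of Eya1 in LID + PD98059 versus LID + Vehicle, and all others hold 0.

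Counted over the list, 0 of 7 members passed the adjusted threshold in any comparison, where 0%, 0.00545%, 0%, 0% and 0.0164% of all transcripts did in the order PD versus Normal, LID versus PD, LID + Vehicle versus LID, LID + PD98059 versus LID + Vehicle, and joined. At the unadjusted threshold, 1 of 7 was called in PD versus Normal, in LID versus PD and in the joined comparison (Tac1 each time), 1 in LID + PD98059 versus LID + Vehicle (Eya1) and 0 in LID + Vehicle versus LID. The background in either direction was 4.31%, 8.17%, 9.06%, 4.44% and 3.68% in that order. With 7 members, 1 call is not read as a result about the list. In PD versus Normal 6 members were higher and Tac1 alone was lower, with a median of 0.13 against 0.01 over all transcripts. This tally changed with the arrays and the model: 5 of those 6 members (all but Ebf1) turned lower without Normal replicate 2, and all 6 turned lower with the cortical marker level in the model. That level did not overlap between Normal and PD, so the latter fit cannot separate it from the group. In LID versus PD the median was -0.13 against -0.03.

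The members varied together from array to array, which was not particular to this list. Their mean was lowest in LID + Vehicle replicate 1 (7.17) and Normal replicate 2 (7.25). The mean of the indirect pathway markers was lowest in the same arrays (8.59 and 8.72). The correlations below were not set against those of all transcripts. Over 15 arrays, Drd1 followed the shared projection neuron level with Pearson's r = 0.91 and Spearman's rho = 0.82 (permutation p = 1e-05, the smallest that 100000 permutations can give, and 0.0003). The r was 0.85 without the 2 arrays farthest from the median of that level and 0.96 within groups. Chrm4 (r = 0.84, rho = 0.78, permutation p = 0.00015 and 0.00104), Ebf1 (r = 0.85, rho = 0.75, permutation p = 7e-05 and 0.00199) and Slc35d3 (r = 0.73, rho = 0.79, permutation p = 0.0019 and 0.00075) did likewise, with r of 0.76, 0.71 and 0.84 without the 2 farthest arrays. Isl1 followed it less closely (r = 0.62, rho = 0.71, permutation p = 0.0148 and 0.00412, r = 0.73 without those arrays). For Eya1 the relation rested on the 2 farthest arrays, since r was 0.69 (rho = 0.47, permutation p = 0.00531 and 0.0821) and 0.14 without them.

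Tac1 was the member least tied to that level over all arrays (r = 0.28, rho = 0.30, permutation p = 0.304 and 0.278, r = 0.34 without the 2 farthest arrays). Within groups its r was 0.76, so the 3 PD arrays, at a high shared level and a low Tac1 level, lay off the line of the others. These 7 relations belong to a family of 28, and after Benjamini-Hochberg adjustment the Pearson p was 0.00028 for Drd1, 0.00084 for Chrm4 and Ebf1, 0.0076 for Slc35d3, 0.0124 for Eya1, 0.0262 for Isl1 and 0.37 for Tac1. The adjusted Spearman p ran from 0.00373 to 0.0153 for 5 members, and was 0.128 for Eya1 and 0.366 for Tac1. The other 21 relations were pairs of members, with a median r of 0.53. The 6 pairs with Tac1 had a median r of 0.25 and the 15 without it 0.64, and within groups these medians were 0.64 and 0.68.

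**Figure D4:**
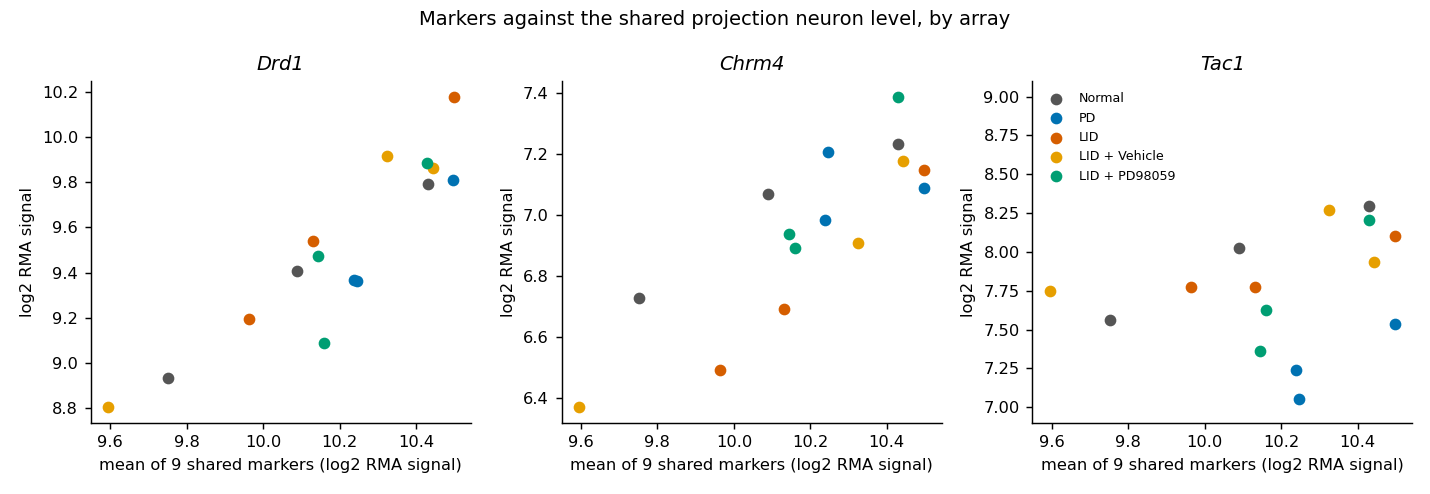
Log2 RMA signal of Drd1, Chrm4 and Tac1 (vertical axes) against the mean of 9 shared projection neuron markers (horizontal axes, log2 RMA signal); points are rats, coloured by group. Drd1 and Chrm4 are higher where the shared level is higher over all 15 arrays (r = 0.91 and 0.84), while for Tac1 (r = 0.28) the 3 PD arrays lie below the rest at the same shared level.

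By Pearson's r over the 15 arrays, among 10719 genes above the dim level, the 3 genes most like each member were listed. For Drd1 they were Atp2b1, Ppp1r2 and Gabra4 (r = 0.95, 0.94 and 0.93). For Chrm4 they were Akap5, Lrrtm3 and Actn2 (r = 0.92, 0.92 and 0.91). For Ebf1 they were Bltp2, Camk2b and Dpp6 (r = 0.91 each). Of these, Atp2b1 encodes a calcium pump, Gabra4 a GABA receptor subunit and Camk2b a subunit of a calcium-dependent kinase. For Tac1 they were Atp5mc3, Plxna2 and Ptprn (r = 0.88, 0.82 and 0.80), for Isl1 Apbb3, Ankrd37 and Jkamp (r = 0.81, 0.80 and 0.79), for Eya1 Ssbp4, Dmpk and Nherf1 (r = 0.92, 0.91 and 0.90), and for Slc35d3 Gpr149, Fntb and Dhx32 (r = 0.87, 0.86 and 0.85). No gene was among the 3 closest of more than 1 member, and these correlations over shared arrays carry no test.

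Other genes of the direct pathway gave the one adjusted call in the lists. Pdyn encodes prodynorphin, the other peptide precursor of these neurons. It was 8.98, 7.81 and 8.01 in Normal, 7.82, 8.17 and 7.71 in PD, and 9.60, 10.06 and 9.67 in LID. It was 9.32, 10.09 and 10.09 in LID + Vehicle and 10.11, 9.48 and 9.43 in LID + PD98059, so that each of the 9 L-DOPA arrays was above every PD and Normal array. Across all transcripts 1.29% were higher in the L-DOPA arrays than in PD without overlap. Pdyn rose by 1.86 in the joined comparison (3.63-fold, SE 0.25, adjusted p = 0.0312). Its difference was 1.88 in LID versus PD (adjusted p = 0.261), and -0.16 in LID + PD98059 versus LID + Vehicle (adjusted p = 0.996). The adjusted p of the joined comparison was 0.0252 to 0.195 with 1 array left out: it stayed under the threshold without LID + PD98059 replicate 3, LID + Vehicle replicate 1 or LID + Vehicle replicate 3, and passed above it without any 1 of the other 9 arrays. It was 0.112 with the cortical marker level in the model, where the difference was 1.30, and 3.6e-05 with the shared projection neuron level.

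The 6 other genes of that list went both ways. In the joined comparison Plxnd1, a semaphorin receptor of direct pathway neurons, was lower by -0.52 (adjusted p = 0.093) and Sfxn1, a mitochondrial serine carrier, was lower by -0.40 (adjusted p = 0.164), both without overlap between 9 L-DOPA and 3 PD arrays, as were 2.05% of all transcripts. Reln, the secreted protein reelin, was higher by 0.44 (adjusted p = 0.427). Of the 7, 2 were called higher and 2 lower at the unadjusted threshold in LID versus PD as well as in the joined comparison, where 9.06% of all transcripts were called either way. The list median was -0.06 in the joined comparison, against -0.02 over all transcripts. In PD versus Normal only Zfp521, a zinc finger factor, was called at the unadjusted threshold, higher by 0.47 (adjusted p = 0.99986). That threshold called 4.31% of all transcripts there.

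The cascade that carries the D1 signal had a row for 16 of 18 genes. In the joined comparison 14 of 16 were lower, 3 of them at the unadjusted threshold and 0 after adjustment, with a median of -0.19 against -0.02 over all transcripts, of which 5.23% were called lower. Shared projection neuron markers (7 of 9 lower, median -0.21) and indirect pathway markers (5 of 7 lower, median -0.20) stood at about the same value. Ppp1r1b, Pde10a and Ptpn5 belong to both the cascade list and the shared list, so these medians are not independent. The 3 called genes of the cascade list were Rasgrp2, Rasgrf1 and Caly. Rasgrp2, an exchange factor for Rap, was at -0.66 (adjusted p = 0.432) and Caly at -0.49 (adjusted p = 0.382). Rasgrf1, a calcium-dependent exchange factor for Ras upstream of ERK, was at -0.28 (adjusted p = 0.279). In PD versus Normal 11 were higher and 5 lower, and only Prkar1b, a regulatory subunit of protein kinase A, was called at the unadjusted threshold, at -0.28. Prkar1b was also the one call in LID + PD98059 versus LID + Vehicle, at -0.33 (adjusted p = 0.966). The unadjusted threshold called 4.31% of all transcripts in PD versus Normal and 4.44% in LID + PD98059 versus LID + Vehicle.

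Receptors and ligands that work beside the members had a row for 12 of 14 genes, of which 9 were above the dim level. In the joined comparison 4 were lower and 1 higher at the unadjusted threshold, where 5.23% and 3.83% of all transcripts were, and 0 passed adjustment. The lower ones were the muscarinic receptors Chrm1 (-0.65, adjusted p = 0.183), Chrm2 (-0.45, adjusted p = 0.312) and Chrm3 (-0.48, adjusted p = 0.289), and Mme, the peptidase neprilysin that can cleave tachykinins (-0.79, adjusted p = 0.407). Tac3, the precursor of neurokinin B, was the higher one, by 0.61 (adjusted p = 0.429). The cortical marker level was 7.31 to 7.94 in PD and 6.19 to 7.48 in the L-DOPA arrays. Its part in the values of this list was not tested. Chrm1 was 8.70 ± 0.10 in PD (SD, n = 3) and 8.05 ± 0.30 in the L-DOPA arrays (SD, n = 9), without overlap, as were 2.05% of all transcripts, whereas Chrm4 in the same comparison differed by -0.20 (adjusted p = 0.711). Tacr1, the receptor of substance P, differed by -0.12 (adjusted p = 0.854). In PD versus Normal, Tac3 was higher by 0.85 (adjusted p = 0.99986) where Tac1 was lower, both at the unadjusted threshold alone. Tac4, another tachykinin precursor, was below the dim level and higher by 0.40 (adjusted p = 0.99986).

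**Figure D5:**
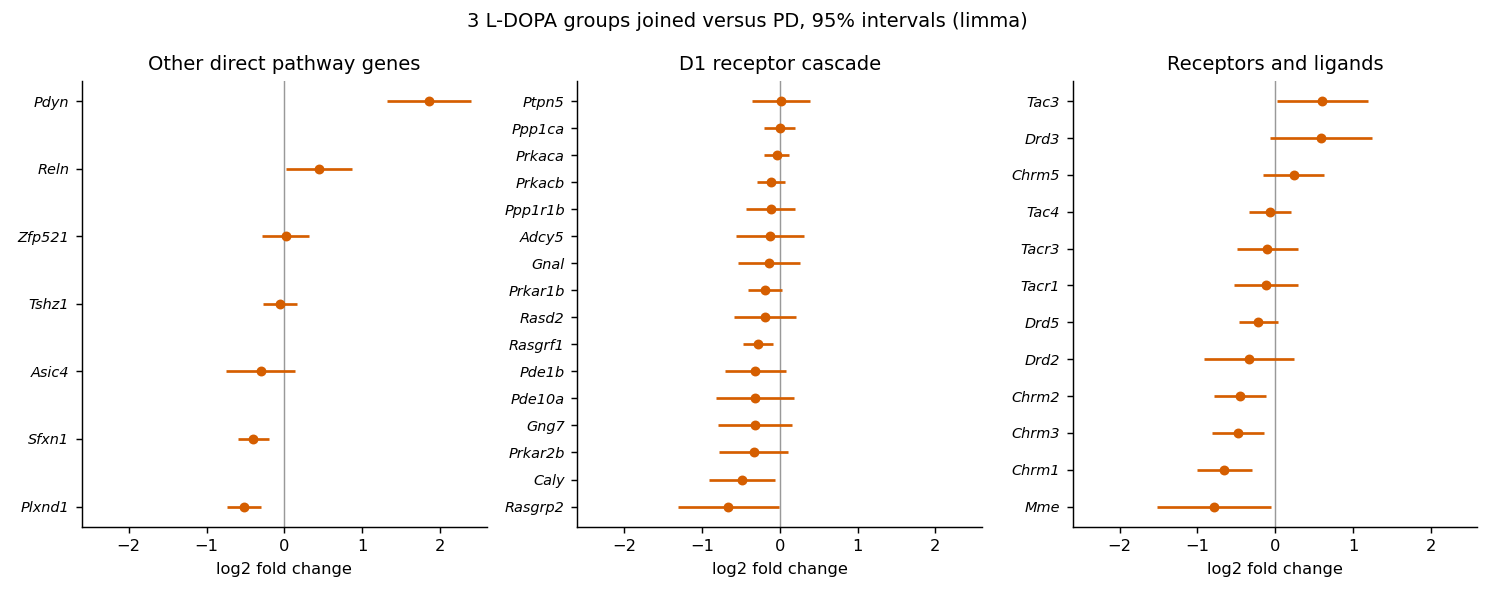
Log2 fold change (horizontal axes) of genes of 3 lists (vertical axes) in the 3 L-DOPA groups joined versus PD; points are limma estimates and lines 95% intervals. Pdyn stands at 1.86, the one gene of these lists past the adjusted threshold, and 14 of 16 genes of the D1 receptor cascade lie below 0.

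Partners of Isl1, Ebf1 and Eya1 were mostly dim, with 13 of 16 genes having a row and 6 above the dim level, and none passed adjustment. Eya2, a relative of Eya1, was higher in LID + Vehicle than in LID by 0.49 at the unadjusted threshold (adjusted p = 0.99992), and its difference in LID + PD98059 versus LID + Vehicle was -0.03. Ebf4, a relative of Ebf1, was lower by -0.32 in the joined comparison (adjusted p = 0.398), and Six2, which was below the dim level, was higher by 0.30 in LID + PD98059 versus LID + Vehicle (adjusted p = 0.966). The unadjusted threshold called 3.68% of all transcripts in LID + Vehicle versus LID, 9.06% in the joined comparison and 4.44% in LID + PD98059 versus LID + Vehicle. The indirect pathway list served as the counterpart of the members in PD versus Normal. There 6 of 7 genes were higher, and Penk, the enkephalin precursor, was 12.01 ± 0.22 in PD against 11.45 ± 0.30 in Normal (SD, n = 3), a difference of 0.55 (adjusted p = 0.994). Drd2, the D2 receptor, was higher by 0.71 (adjusted p = 0.99986), and these 2 were the list's calls at the unadjusted threshold, where 4.31% of all transcripts were called. The list median of 0.22 was close to that of the shared projection neuron markers, of which 9 of 9 were higher in PD with a median of 0.23. Among the shared markers only Gad1, a GABA synthesis enzyme, was called at the unadjusted threshold, at 0.42 (adjusted p = 0.99986). Normal replicate 2 was the lowest Normal array of both lists. The indirect level was 9.21, 8.72 and 9.07 in the Normal rats and 9.19 to 9.41 in PD. The shared level was 10.43, 9.75 and 10.09 in the Normal rats and 10.24 to 10.50 in PD. Neither tally was recounted without Normal replicate 2. In LID versus PD 0 of the 7 indirect pathway genes were higher, and Penk differed by -0.02. Grik3, a kainate receptor subunit, was lower by -0.59 (adjusted p = 0.351), the only call of that list at the unadjusted threshold. That threshold called 8.17% of all transcripts in LID versus PD.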

How the data were processed

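Striatal RNA of 15 rats was measured on Affymetrix Rat Gene 2.0 ST arrays. The authors deposited log2 values made with RMA (background correction, quantile normalization and summary over the probes of a transcript) in Affymetrix Expression Console, version not given in the sources used here. Quantile normalization gives every array nearly the same distribution, so differences are relative to the array as a whole. The number of arrays limits the precision. Genes were named from the platform annotation: 18511 transcripts had 1 symbol, 575 several and 17599 none.

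A mean per group was fitted over all 15 arrays with limma 3.58.1 (R 4.3.3, lmFit and eBayes), and p-values were adjusted over 36685 transcripts by Benjamini-Hochberg. A call needed an adjusted p under 0.05 and a fold change of at least 1.2; the unadjusted threshold used the raw p. Exact permutation tests were two-sided. Correlation p-values used 100000 permutations. The procedure was also run on simulated data with independent noise per transcript, unlike these arrays, in which genes varied together. That run is not used as support for the calls. Members and lists were chosen with earlier results of these data known. Genes named were the 7 members, the 3 most alike of each, and at most 4 per list by smallest p among those called by either rule, plus Reln, Tac3, Mme and Tacr1, named after their values were seen. Rats were separate animals. Promoter sequences came from RefSeq (GRCr8). Alternatives were the replicate block, leaving out arrays, fits on the compared arrays, a trended robust prior, removal of dim transcripts, requantiling, median centring and 2 covariates.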

Additional observations from a re-analysis of the deposited data

How the results depend on the processing

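Over the 7 members and 5 comparisons, 211 differences with 1 array left out and 256 under the other alternatives kept their direction and stayed on their side of the adjusted threshold, and 41 and 24 changed sign. No paired design is stated. Arrays with the same replicate number in different groups did not deviate together (30 pairs, median r = 0.01, 6 of them over 0.1), and with the number as a block Tac1 gave an adjusted p of 0.99985, 0.572 and 0.359 in PD versus Normal, LID versus PD and the joined comparison; the block moved the calls to 1 in LID versus PD and 2 in the joined comparison. Averaging several rows of a gene was not run, since each member has 1 row.

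With the cortical marker level in the model, the sign turned in PD versus Normal for Chrm4 (-0.25), Drd1 (-0.46), Ebf1 (-0.076), Eya1 (-0.086), Isl1 (-0.11) and Slc35d3 (-0.18), in LID versus PD for Drd1 (-0.40) and Ebf1 (-0.19), in LID + Vehicle versus LID for Chrm4 (-0.15), Isl1 (-0.044), Slc35d3 (-0.13) and Tac1 (-0.077), and in the joined comparison for Drd1 (-0.70). With the shared projection neuron level, it turned in PD versus Normal for Chrm4 (-0.13), Drd1 (-0.21), Eya1 (-0.12) and Slc35d3 (-0.020), in LID + Vehicle versus LID for Drd1 (0.0032), in the joined comparison for Ebf1 (0.11), Isl1 (0.016) and Slc35d3 (0.0025), and in LID + PD98059 versus LID + Vehicle for Isl1 (-0.034) and Slc35d3 (-0.0012). Median centring turned Isl1 in LID + PD98059 versus LID + Vehicle (-0.0084). The cause was not tested, and the cortical marker level did not overlap between Normal and PD.

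With 1 array left out, the range crossed 0 in PD versus Normal for Chrm4 (-0.059 to 0.19), Drd1 (-0.087 to 0.34), Eya1 (-0.10 to 0.23), Isl1 (-0.0096 to 0.26) and Slc35d3 (-0.027 to 0.34); in LID versus PD for Drd1 (-0.15 to 0.35), Ebf1 (-0.10 to 0.27) and Isl1 (-0.38 to 0.021); in LID + Vehicle versus LID for Chrm4 (-0.14 to 0.27), Drd1 (-0.33 to 0.25), Eya1 (-0.51 to 0.051), Isl1 (-0.052 to 0.35), Slc35d3 (-0.11 to 0.33) and Tac1 (-0.043 to 0.22); in LID + PD98059 versus LID + Vehicle for Drd1 (-0.41 to 0.15), Ebf1 (-0.12 to 0.35), Isl1 (-0.035 to 0.10) and Slc35d3 (-0.032 to 0.25); and in the joined comparison for Drd1 (-0.055 to 0.18) and Ebf1 (-0.092 to 0.070). Tac1 did not cross 0 in PD versus Normal (-0.88 to -0.52), LID versus PD (0.50 to 0.73) or the joined comparison (0.48 to 0.72).

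Counts over all transcripts moved more. Removing dim transcripts, which leaves fewer to test, gave 657, 1667, 499, 734 and 2068 calls at the unadjusted threshold in PD versus Normal, LID versus PD, LID + Vehicle versus LID, LID + PD98059 versus LID + Vehicle and the joined comparison, against 1580, 2997, 1349, 1629 and 3324. With 1 array left out these counts ran from 1530 to 1736, 2282 to 4295, 1410 to 1767, 1405 to 2528 and 2579 to 4180. Adjusted calls in the joined comparison were 6, and 57 without dim transcripts, 16 with the trended robust prior and 1 to 26 with 1 array left out. In LID versus PD they were 2, 1 without dim transcripts, 1 on the compared arrays alone and 1 to 2 with 1 array left out. They ran from 0 to 1 with 1 array left out in each of PD versus Normal, LID + Vehicle versus LID and LID + PD98059 versus LID + Vehicle.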
